A study of Homo sapiens with 4 samples.

Results

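Molecular chaperones are proteins that help other proteins to fold. The 40 genes described here were taken from the deposited gene table by symbol, out of 58336 genes, and all 40 were found once. They fall into 21 cytosolic and other heat shock genes, which include the mitochondrial pair HSPD1 and HSPE1, and 19 genes of the endoplasmic reticulum (ER). The RNA came from 2 human gastric cancer lines, AGS, an epithelial adenocarcinoma line, and HGC-27, an undifferentiated carcinoma line. Both are labelled wild type, and each was sequenced once untreated (control) and once after 1 day in 10 nM estradiol, the main oestrogen. That gives 4 libraries, 1 for each line and treatment. Whether the libraries are independent cultures is not in the labels, so p-values measure only the spread between these libraries, which may be technical, and each line stands for itself alone.

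In the cytosol, HSP70 and HSP90 proteins bind unfolded or partly folded client proteins with the help of J-domain proteins and co-chaperones, and the transcription factor HSF1 raises their genes when proteins unfold. In the ER, secreted and membrane proteins are folded by BiP (HSPA5), GRP94 (HSP90B1), the lectins calnexin and calreticulin and the protein disulfide isomerases. Unfolded protein there activates the unfolded protein response, in which XBP1 and ATF6 raise the genes of ER chaperones. Gastric epithelium secretes large amounts of mucin and enzymes, which are folded in the ER.

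The libraries held 24597379 to 28734374 counts, of which 7.82% to 7.94% came from mitochondrially encoded genes. Of 9 markers of gastric epithelium, 8 were higher in both AGS libraries than in both HGC-27 libraries, with summed levels of 5940 and 6281 CPM (counts scaled to a common library size) against 82.96 and 90.38, and only CLDN18 was lower in AGS. HGC-27 instead carried the mesenchymal markers (1516 and 1538 CPM over 4 genes, against 5.002 and 5.572 in AGS, with only CDH2 not higher) and the fibroblast markers (1703 and 1770 CPM over 5 genes, against 12.5 and 10.6). Leukocyte, endothelial and erythroid markers each summed to 5.161 CPM or less in every library, with CD3E at 0 in all 4. These markers differ between the lines together with the chaperones, and their part in the differences described below was not tested.

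Some promoters of the members carry sequence elements known from the 2 stress systems, and a few are shown so that these elements can be seen. They come from RefSeq windows on GRCh38.p14 that run from 250 bases before a RefSeq start of a gene to 50 bases after it. In these windows 18 of the 21 cytosolic and 18 of the 19 ER members were matched. The searched motifs, on both strands, were the ER stress element ERSE (CCAAT, any 9 bases, CCACG), its short form ERSE-II (ATTGG, any base, CCACG), which shares the CCACG end with ERSE, and a 3-unit heat shock element, HSE (GAA, TTC and GAA with any 2 bases between units). ERSE was found in the windows of 7 ER members (HSPA5, HSP90B1, CALR, CANX, PDIA6, CRELD2 and XBP1) and 0 cytosolic members, and in 0.0769% of 35116 windows. ERSE-II was found in 3 ER members (SDF2L1, HYOU1 and HERPUD1) and 0 cytosolic members, and in 0.0541% of windows. HSE was found in 7 cytosolic members (HSPA8, HSP90AA1, HSP90AB1, HSPD1, DNAJA1, DNAJB6 and CHORDC1) and 0 ER members, and in 0.49% of windows. A match is a description of these letters and does not show binding. Only exact matches were counted, so a gene without one may still carry an element with other letters or outside the window. In the stretches below, capitals mark the motif, as read 5′ to 3′ on the strand of the gene. An element in the reverse direction therefore appears as its reverse complement. The distance is that of the first capital from the RefSeq start of the window, which can differ from the end of the deposited gene span. The stretches of HSP90B1, CANX, HSP90AA1, HSP90AB1 and HSPA8 lie inside the deposited spans of these genes. Short stretches are given where an annotated exon lies near.
HSPA5, ERSE at -66, chr9:125241366-125241434, minus strand: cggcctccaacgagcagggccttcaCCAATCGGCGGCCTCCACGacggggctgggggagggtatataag
HSP90B1, ERSE reversed at -89, chr12:103930316-103930344, plus strand: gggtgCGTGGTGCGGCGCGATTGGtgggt
CALR, ERSE reversed at -225, chr19:12938359-12938427, plus strand: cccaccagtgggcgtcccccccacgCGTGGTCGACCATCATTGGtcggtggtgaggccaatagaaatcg
CANX, ERSE at -151, chr5:179698773-179698801, plus strand: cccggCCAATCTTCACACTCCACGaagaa
HYOU1, ERSE-II reversed at -79, chr11:119057249-119057309, minus strand: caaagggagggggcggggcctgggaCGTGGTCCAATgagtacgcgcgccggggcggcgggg
HSP90AA1, HSE reversed at -88, chr14:102087115-102087137, minus strand: ggttcTTCCGGAAGGTTCgggag
HSP90AB1, HSE reversed at -165, chr6:44247753-44247815, plus strand: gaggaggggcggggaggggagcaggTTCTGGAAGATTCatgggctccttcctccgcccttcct
HSPA8, HSE reversed at -55, chr11:123062174-123062196, minus strand: gccccTTCTGGAAGGTTCtaaga

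The 40 genes took 2.285% to 2.392% of all counts in each library, with a different split between the compartments in the 2 lines. Summed over the cytosolic members, the level was 13004 CPM in control and 13130 CPM in estradiol-treated AGS, and 15769 and 14889 CPM in HGC-27 in the same order, which is kept for every pair of values below. Summed over the ER members, it was 11213 and 10702 CPM in AGS and 7583 and 7597 CPM in HGC-27. The cytosolic sum was therefore 1.16 and 1.227 times the ER sum in AGS, and 2.079 and 1.96 times in HGC-27. CPM here are counts divided by library sizes scaled with the TMM method. In RNA from whole cultures, more cells that express a gene and more RNA per cell cannot be told apart.

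Levels of different genes are compared per length, as CPM divided by the deposited gene length in kilobases (length-scaled CPM). The 3 highest cytosolic genes by this measure were HSP90AB1, HSP90AA1 and HSPA8, the abundant HSP90 and HSP70 chaperones of the cytosol, which made up 66.5% to 68.4% of the summed length-scaled level of the cytosolic members. HSP90AB1 averaged 739 length-scaled CPM in AGS and 1324 in HGC-27, HSP90AA1 753 and 748, and HSPA8 583 and 545. The 3 highest ER genes were calreticulin CALR (455 in AGS and 324 in HGC-27), BiP HSPA5 (446 and 253) and GRP94 HSP90B1 (477 and 209), which made up 52.9% and 53.1% of the ER members' level in AGS and 45.0% and 45.1% in HGC-27. At the other end stood the stress-induced HSPA1A (1.96 and 1.18) and the small heat shock protein CRYAB (0.0425 and 4.59). HSPA1A shares 74.28% of its 31-base stretches with its neighbour HSPA1B (37.3 and 22.7), so its separate level is uncertain. The deposited length of DNAJB6 is 14981 bases, so a level per length is low where much of the annotated length is not transcribed in these cells.

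**Figure D1:**
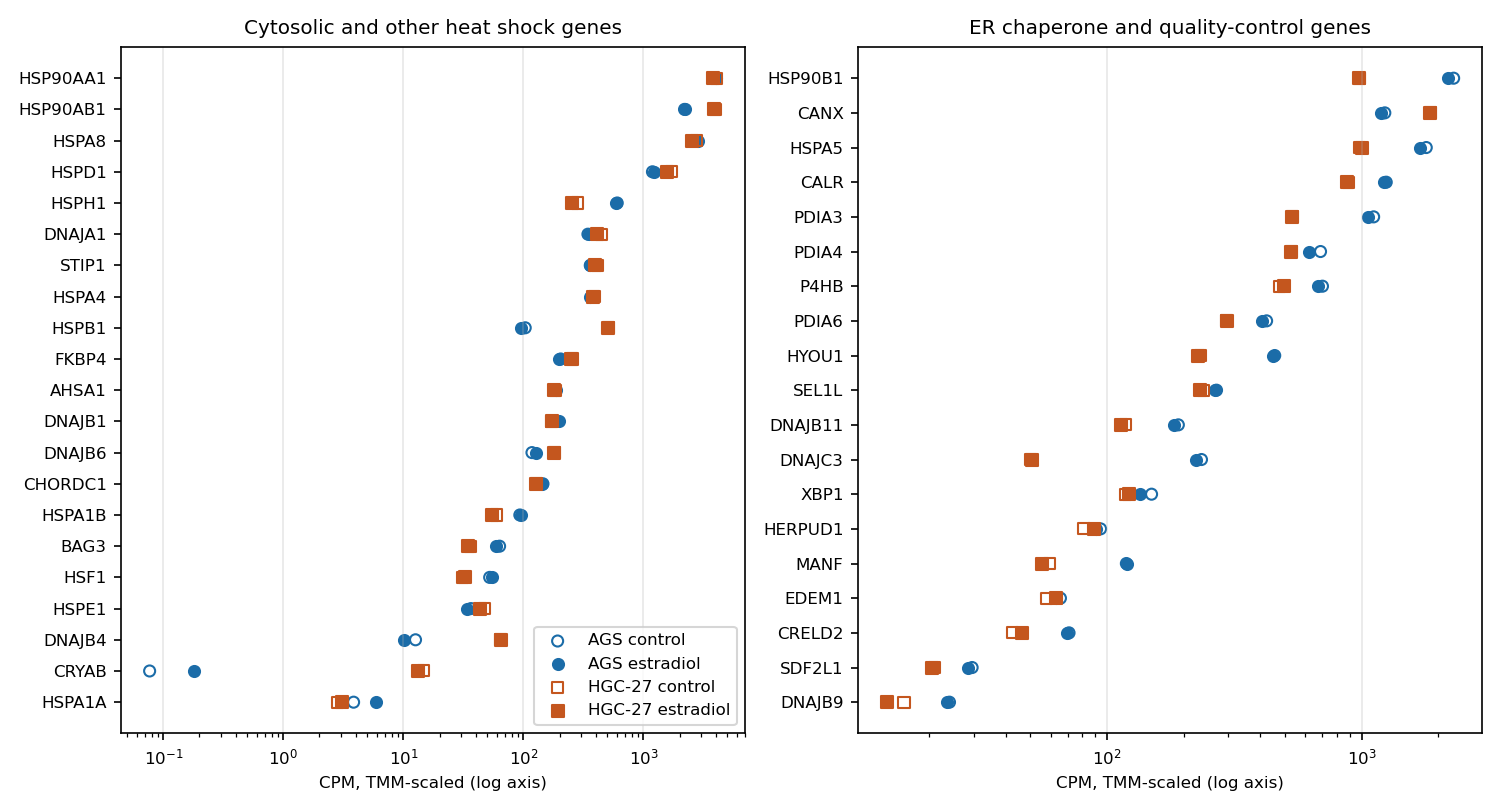
Level of each of the 40 genes in each library, as TMM-scaled CPM on a log axis, with 1 point for each library (circles for AGS, squares for HGC-27, open for control and filled for estradiol); genes are ordered by their mean over libraries and no error is drawn because each point is 1 library. Open and filled points of a line lie close together, while most ER genes have the AGS points to the right, CANX being the ER gene with clearly higher HGC-27 points.

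Between the lines, 16 of the 19 ER members were higher in AGS, 1 was higher in HGC-27 and 2 did not pass the threshold, while the 21 cytosolic members were divided into 7 higher in AGS, 10 higher in HGC-27 and 4 that did not pass. The 10 include CRYAB, which passed the filter on low counts through HGC-27 alone and could be called only in that direction. The test was edgeR's quasi-likelihood F-test with treatment in the model (n = 2 libraries per line, Benjamini-Hochberg adjusted over 18278 genes, threshold 0.05). Over all genes tested, 35.7% were called higher in AGS and 41.5% higher in HGC-27, 77.2% in all, so that most genes differ between these lines, and the members' counts are read against these shares. The median log2 difference, AGS minus HGC-27, was 0.50 over the ER members and -0.066 over the cytosolic members, beside -0.10 over all genes tested. The cytosolic median was -0.15 with upper-quartile scaling, which moved all genes by a median of -0.086, and -0.19 over the 19 cytosolic members kept when genes of shared sequence were left out. Each gene has 1 residual degree of freedom, and the standard errors (SE) rest on a spread shared between genes. That residual is how far the estradiol changes of the 2 lines disagree, so a real difference in response would enter it as spread. The very small adjusted p-values printed below rest on the shared spread, and their size changed by many orders of magnitude with the processing. They are read only as passing the threshold.

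Of the ER members, the J-domain protein DNAJC3 (p58IPK), a BiP partner that also inhibits the kinase PERK, had the largest difference. DNAJC3 (chromosome 13, 95677139 to 95794989) stood at 235 and 224 CPM in AGS and at 50.3 and 50.7 CPM in HGC-27. The libraries of the lines were far apart, with a log2 difference of 2.19 ± 0.06 (SE; adjusted p = 5.63e-128), or 4.55-fold. HSP90B1 (GRP94, chromosome 12, 103930107 to 103953645), the HSP90 of the ER, stood at 2300 and 2183 CPM in AGS and at 982 and 978 CPM in HGC-27, 2.29-fold higher in AGS (1.19 ± 0.05, adjusted p = 5.49e-78). HSPA5 (BiP, chromosome 9, 125234853 to 125241330), the HSP70 of the ER and the sensor-binding chaperone of the unfolded protein response, stood at 1795 and 1693 CPM in AGS and at 978 and 1003 CPM in HGC-27. Its difference was 0.82 ± 0.05 (adjusted p = 4.9e-46). HYOU1 (GRP170), a nucleotide exchange factor of BiP, was at 456 and 448 CPM against 233 and 228 CPM (0.97 ± 0.05). The BiP co-chaperone DNAJB11 was at 191 and 183 CPM against 118 and 114 CPM (0.69 ± 0.06), and DNAJB9, another J-domain partner of BiP, was at 24.0 and 23.5 CPM against 15.9 and 13.6 CPM (0.69 ± 0.11). In each of these 6 genes both AGS libraries lay above both HGC-27 libraries. The same held for 7494 of the 18278 genes tested, and the reverse for 8726, so such separation is common between these lines.

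The protein disulfide isomerases, which form and reshuffle disulfide bonds, were all higher in AGS but by different amounts. PDIA3 (ERp57), the partner of calnexin and calreticulin, had the largest difference of the 4. It stood at 1115 and 1059 CPM in AGS and at 537 and 532 CPM in HGC-27 (1.02 ± 0.05, adjusted p = 1.83e-63). P4HB, which also serves as a subunit of prolyl 4-hydroxylase, stood at 702 and 677 CPM against 477 and 497 CPM (0.50 ± 0.05). PDIA6 stood at 424 and 405 CPM against 295 and 296 CPM (0.49 ± 0.05). PDIA4 had the smallest difference, at 690 and 622 CPM against 529 and 526 CPM (0.31 ± 0.05). In all 4 genes both AGS libraries lay above both HGC-27 libraries, as in 7494 of the 18278 genes tested.

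The lectin chaperones, which hold newly made glycoproteins, went in opposite directions. Calreticulin, the soluble lectin, was higher in AGS: CALR (chromosome 19, 12938578 to 12944489) stood at 1250 and 1221 CPM there and at 885 and 876 CPM in HGC-27 (0.49 ± 0.05, adjusted p = 2.17e-20). Calnexin, its membrane-bound relative, was the ER member called higher in HGC-27. CANX (chromosome 5, 179678628 to 179730925) stood at 1234 and 1190 CPM in AGS and at 1864 and 1853 CPM in HGC-27 (-0.62 ± 0.05, adjusted p = 6.85e-30). Both genes carry an ERSE in the stretches printed above. Of the 10 ER members with an exact match to ERSE or ERSE-II, 8 were higher in AGS, 1 was higher in HGC-27 and 1 was not called. Of the 8 matched ER members with an exact match to neither, 7 were higher in AGS and 1 was not called. These counts stand beside 35.7% of all genes tested called higher in AGS and 41.5% in HGC-27. A link between a match and the line difference was not tested.

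The small secreted and lumenal ER stress genes were likewise higher in AGS. MANF, a secreted protein that is held in the ER with BiP, was at 119 CPM in each AGS library and at 59.4 and 55.4 CPM in HGC-27 (1.06 ± 0.06, adjusted p = 1.92e-47). CRELD2 was at 70.9 and 69.8 CPM against 42.6 and 46.5 CPM (0.66 ± 0.07), and SDF2L1, a cofactor of DNAJB11, was at 29.5 and 28.4 CPM against 21.1 and 20.5 CPM (0.48 ± 0.10). Regulators and degradation genes showed the smallest differences. The transcription factor XBP1 was at 150 and 135 CPM in AGS and at 119 and 122 CPM in HGC-27 (0.24 ± 0.06, adjusted p = 4.2e-05); gene counts do not separate its spliced, active form from the unspliced one. SEL1L, the adaptor of the HRD1 ubiquitin ligase, was at 269 and 265 CPM against 239 and 233 CPM (0.18 ± 0.05, adjusted p = 0.000859, but 0.0824 with upper-quartile scaling). HERPUD1, an ER membrane protein of the degradation machinery, was at 94.3 and 90.4 CPM in AGS and at 81.2 and 89.0 CPM in HGC-27 (0.12 ± 0.06, adjusted p = 0.0681), with an adjusted p of 0.0496 with RLE scaling, 0.115 without a filter and 0.63 with upper-quartile scaling, where the difference was 0.034. EDEM1, which marks misfolded glycoproteins for degradation, was at 65.6 and 62.9 CPM against 58.0 and 63.2 CPM (0.09 ± 0.07, adjusted p = 0.247), with the libraries of the lines overlapping.

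**Figure D2:**
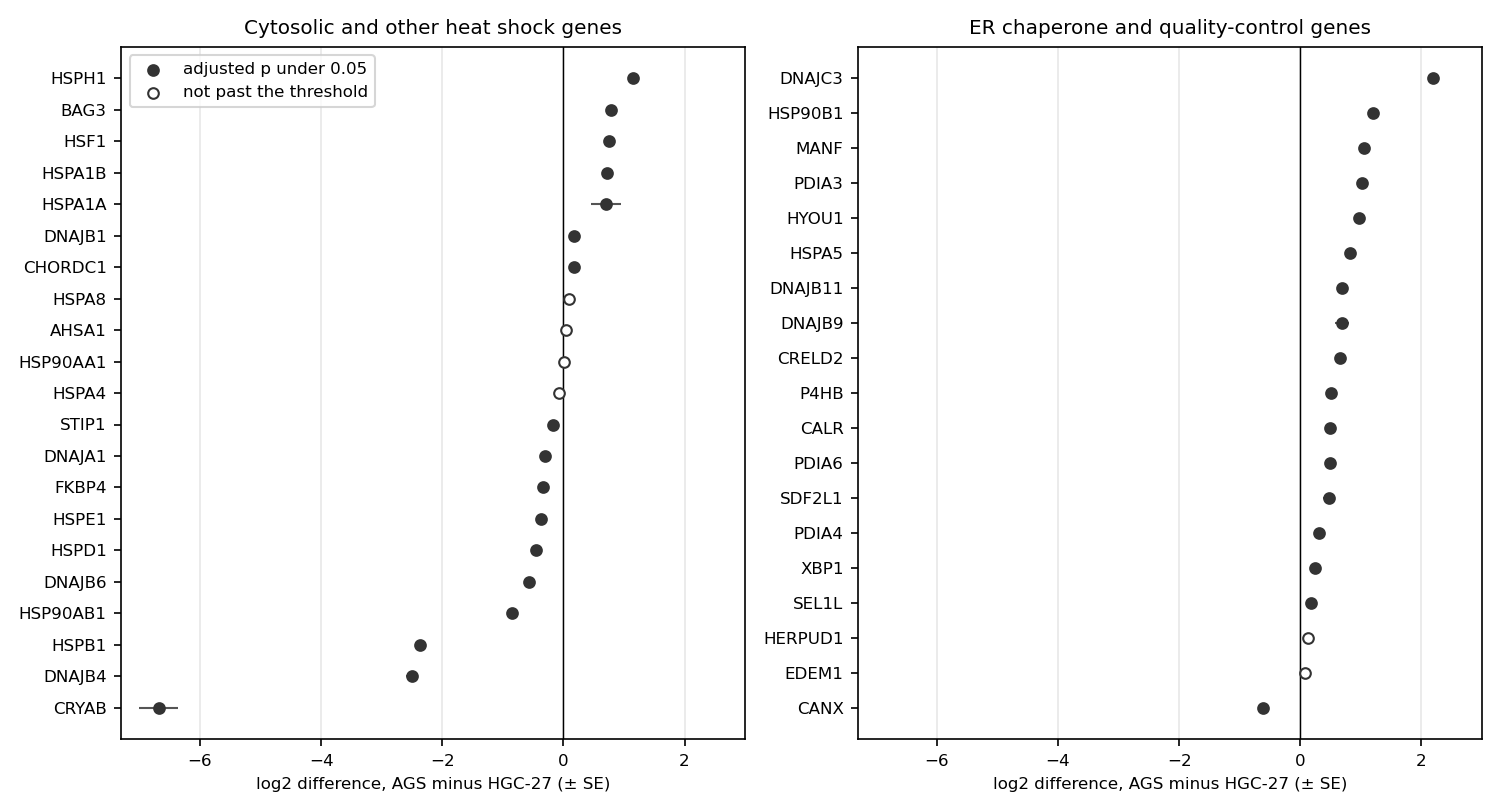
Log2 difference between the lines for each gene, AGS minus HGC-27 on the x axis, from the edgeR fit over 4 libraries; points are fitted differences, bars are ± 1 SE (hidden behind the point where small), and filled points passed an adjusted p of 0.05. The ER genes lie to the right of 0 except for CANX at -0.62, while the cytosolic genes run from CRYAB at -6.68 to HSPH1 at 1.15.

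In the cytosol, the small heat shock proteins and HSP90AB1 were higher in HGC-27. HSPB1 (HSP27, chromosome 7, 76302544 to 76304295), a small chaperone that holds unfolded proteins, stood at 103 and 94.9 CPM in AGS and at 512 and 507 CPM in HGC-27, 5.14-fold higher there (-2.36 ± 0.05, adjusted p = 7.89e-151). CRYAB, alpha-B crystallin, another small heat shock protein, was counted 2 and 5 times in AGS and 423 and 330 times in HGC-27. The ratio of HGC-27 over AGS was 190-fold in the control libraries (95% counting interval 52.3 to 1574) and 73.0-fold in the estradiol libraries (31 to 226), and the gene passed the filter on low counts through HGC-27 alone. DNAJB4, a J-domain protein, was at 12.6 and 10.2 CPM in AGS and at 63.9 and 65.6 CPM in HGC-27 (-2.51 ± 0.09, adjusted p = 3.77e-93). In all of these the lines lay far apart.

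The cytosolic HSP90 genes differed from each other. HSP90AB1 (chromosome 6, 44246166 to 44253888), the constitutive form, stood at 2198 and 2205 CPM in AGS and at 4000 and 3889 CPM in HGC-27 (-0.84 ± 0.05, adjusted p = 5.87e-48). HSP90AA1 (chromosome 14, 102080738 to 102139699), the form that stress induces, stood at 3918 and 3987 CPM in AGS and at 4078 and 3777 CPM in HGC-27, with overlapping libraries and a difference of 0.01 ± 0.05 (adjusted p = 0.857). Per length, HSP90AB1 was 0.9877 and 0.9737 times HSP90AA1 in AGS and 1.728 and 1.813 times in HGC-27. Both genes share sequence with other genes (36.12% of the 31-base stretches of the longest HSP90AA1 transcript and 40.13% of those of HSP90AB1), so that part of their reads could be assigned elsewhere. Of the HSP90 co-chaperones, STIP1 (HOP), which links HSP70 to HSP90, was at 361 and 360 CPM against 417 and 394 CPM (-0.17 ± 0.05, adjusted p = 0.00127). The immunophilin FKBP4 was at 204 and 198 CPM against 258 and 249 CPM (-0.33 ± 0.05). The HSP90 ATPase activator AHSA1 was at 185 and 188 CPM against 185 and 178 CPM (0.04 ± 0.05, adjusted p = 0.54), and the co-chaperone CHORDC1 was at 145 and 142 CPM against 130 and 126 CPM (0.17 ± 0.06, adjusted p = 0.0046, but 0.17 with upper-quartile scaling).

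The HSP70 genes and their exchange factors were higher in AGS or did not pass. HSPA8 (HSC70), the constitutive HSP70, stood at 2812 and 2844 CPM in AGS and at 2743 and 2546 CPM in HGC-27 (0.10 ± 0.05, adjusted p = 0.0613). The call depends on the setting: the adjusted p was 0.0358 with RLE scaling, 0.0415 in DESeq2, 0.0401 without treatment in the model and 0.0059 without a filter, but 0.368 in protein-coding genes and 0.824 with upper-quartile scaling, where the difference was 0.012. HSPA8 shares 41.06% of its 31-base stretches with other genes, so part of its reads could be assigned elsewhere. HSPH1 (HSP110, chromosome 13, 31134974 to 31162388), an exchange factor of HSP70, was at 604 and 593 CPM against 283 and 256 CPM and was 2.22-fold higher in AGS (1.15 ± 0.05, adjusted p = 3.54e-72). Its relative HSPA4 was at 370 and 361 CPM against 387 and 378 CPM (-0.07 ± 0.05, adjusted p = 0.222, but 0.00567 with upper-quartile scaling). BAG3, an exchange factor that directs clients to autophagy, was at 63.3 and 59.0 CPM in AGS and at 36.5 and 34.4 CPM in HGC-27 (0.79 ± 0.08). HSF1, the heat shock transcription factor, was at 52.3 and 54.6 CPM against 31.1 and 32.4 CPM (0.75 ± 0.08, adjusted p = 4.51e-19).

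The stress-induced HSP70 pair HSPA1A and HSPA1B lie next to each other on chromosome 6 (31815464 to 31817946 and 31827735 to 31830255) and share 74.28% of the 31-base stretches of HSPA1A, so that their separate counts are uncertain. HSPA1B stood at 93.3 and 95 CPM in AGS and at 60.1 and 54.4 CPM in HGC-27 (0.72 ± 0.07, adjusted p = 2.42e-24). HSPA1A was counted 100 and 163 times in AGS and 81 and 77 times in HGC-27, or 3.96%, 5.846%, 4.451% and 5.362% of the pair's counts. Its difference of 0.71 ± 0.25 was called in edgeR (adjusted p = 0.00676) but not in DESeq2 (adjusted p = 0.137). With the counts of the pair summed, the difference was 0.72 (edgeR adjusted p = 2.44e-25).

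Of the J-domain proteins of the cytosol, which hand clients to HSP70, DNAJA1 was at 345 and 349 CPM in AGS and at 447 and 413 CPM in HGC-27 (-0.31 ± 0.05), and DNAJB6 was at 118 and 128 CPM against 183 and 180 CPM (-0.56 ± 0.06). DNAJB1 (HSP40), the stress-induced one, was at 190 and 199 CPM against 172 and 174 CPM (0.17 ± 0.05, adjusted p = 0.00263, but 0.141 with upper-quartile scaling). The mitochondrial chaperonin HSPD1 (HSP60) was at 1188 and 1223 CPM against 1718 and 1575 CPM (-0.45 ± 0.05). Its lid HSPE1 (HSP10) was at 36.5 and 33.9 CPM against 47.7 and 43.6 CPM (-0.37 ± 0.08). Both were called higher in HGC-27. HSPE1 (chromosome 2, 197499994 to 197503457) lies inside the annotated span of HSPD1 (197486581 to 197516737), and the use of strand in counting is not stated, so reads of the 2 genes may be mixed or lost. HSPE1 also shares 31.52% of its 31-base stretches with other genes, the closest being HSPE1-MOB4 (17.72%). HSPD1 shares 46.47%, the closest being HSPD1P1 (30.31%). Part of the reads of both genes could therefore be assigned elsewhere. Of the 7 cytosolic members with an exact match to the HSE pattern, 1 was higher in AGS, 4 were higher in HGC-27 and 2 were not called. Of the 11 matched members without an exact match, the counts were 5, 4 and 2, and these 11 are not shown to lack a heat shock element. Both sets of counts stand beside 35.7% of all genes tested called higher in AGS and 41.5% in HGC-27, and a link to the motif was not tested.

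Estradiol gave no call among the 40 genes. In the edgeR test with the line as a block (n = 2 libraries per group), 0 of 40 passed an adjusted p of 0.05, where 0.153% of the 18278 genes tested passed (28 genes, 0.115% higher and 0.0383% lower). At an unadjusted p under 0.05 the number was 0 of 40 in edgeR, 0 in DESeq2 and 0 in limma-voom, with smallest unadjusted p-values of 0.0974, 0.154 and 0.118. Over all genes tested the shares were 3.24%, 0.793% and 2.68%, so that 0 of 40 is near the background. The fitted log2 changes of estradiol minus control ran from -0.12 to 0.40 in the cytosolic members (median -0.043) and from -0.12 to 0.05 in the ER members (median -0.030), beside a median of -0.00072 over all genes tested. Of the 40 changes, 36 were smaller than 0.1 in size. Their SEs ran from 0.049 to 0.25, with a median of 0.053, so that changes of the size of a few per cent were not detectable. The change was above 0 in 4 of 21 cytosolic and 4 of 19 ER members, beside 49.7% of all genes tested.

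Within a line there is 1 library per treatment and therefore no test, and the ratios of estradiol over control are described with 95% counting intervals, which cover counting error only. They are narrow for genes of high counts, and 34 of the 40 members had a mean of at least 1000 counts in AGS, as did 34 in HGC-27. In AGS the ER members stood slightly lower in the estradiol library: of 19, 11 had an interval below 0, 0 above, and the median log2 ratio was -0.06. Of 20 cytosolic members of AGS with at least 100 counts, 6 had an interval above 0 and 3 below, with a median of 0.01. Over all genes of AGS with a mean count of at least 100, 15.5% had an interval below 0 and 14.2% above, and over the 5803 genes with at least 1000 counts the shares were 16.8% and 17.9%. In HGC-27 it was the cytosolic members that stood slightly lower, with 10 of 20 intervals below 0, 0 above and a median of -0.066. The ER members of HGC-27 had 1 of 19 below 0, 5 above and a median of -0.0072. In HGC-27, 14.6% of genes at 100 counts had an interval below 0 and 10.8% above, and 22.1% and 9.65% of the 5743 genes at 1000 counts. The medians of all genes at 1000 counts were 0.002 in AGS and -0.021 in HGC-27.

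**Figure D3:**
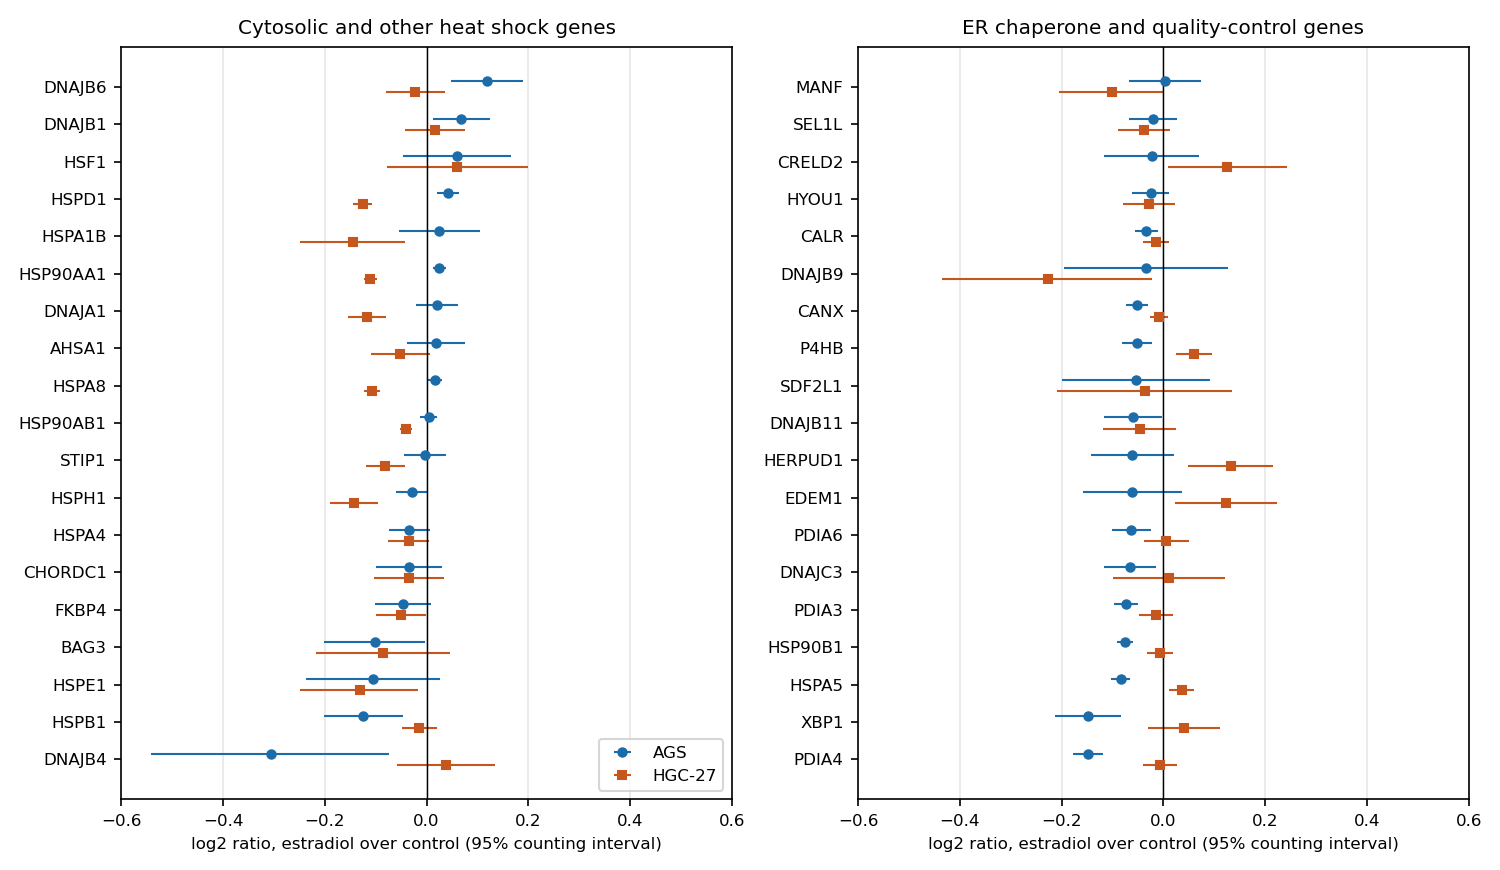
Log2 ratio of the estradiol over the control library within each line (x axis) for the 38 members with a mean of at least 100 counts in both lines; points are ratios (circles AGS, squares HGC-27) and bars are 95% counting intervals, with 1 library per treatment in each line. In AGS the ER genes lie mostly left of 0 (median -0.06) and in HGC-27 the cytosolic genes do (median -0.066 with CRYAB, which is not drawn), and most ratios are smaller than 0.15 in size.

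The lower values in AGS were led by PDIA4 and XBP1. PDIA4 stood at 690 CPM in the control and 622 CPM in the estradiol library, a ratio of -0.15 (interval -0.18 to -0.12), while it was 529 and 526 CPM in HGC-27 (-0.0072, -0.041 to 0.027). XBP1 was 150 and 135 CPM in AGS (-0.15, -0.21 to -0.08) and 119 and 122 CPM in HGC-27 (0.04, -0.03 to 0.11). HSPA5 was next at -0.08 (-0.10 to -0.07). The highest ER ratios in AGS, those of MANF (0.003), SEL1L (-0.02) and CRELD2 (-0.02), had intervals on both sides of 0. In HGC-27 the ER genes with the highest ratios were HERPUD1 (0.13, 0.05 to 0.22), CRELD2 (0.13, 0.01 to 0.24) and EDEM1 (0.12, 0.02 to 0.22), and the lowest were DNAJB9 (-0.23, -0.43 to -0.02), MANF (-0.10, -0.20 to 0.001) and DNAJB11 (-0.05, -0.12 to 0.03).

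Among the cytosolic members of AGS, HSPA1A had the highest ratio, 0.61 (interval 0.25 to 0.99), from 100 and 163 counts. For HSPA1A and HSPA1B summed, with 2525 and 2788 counts, the ratio was 0.05 (-0.02 to 0.13). DNAJB6 (0.12, 0.05 to 0.19) and DNAJB1 (0.07, 0.01 to 0.12) followed, and the lowest were DNAJB4 (-0.31, -0.54 to -0.07), HSPB1 (-0.12, -0.20 to -0.05) and HSPE1 (-0.11, -0.24 to 0.03). In HGC-27 the lowest were CRYAB (-0.15, -0.36 to 0.06), HSPA1B (-0.14, -0.25 to -0.04) and HSPH1 (-0.14, -0.19 to -0.10), and the highest were HSF1 (0.06, -0.08 to 0.20), DNAJB4 (0.04, -0.06 to 0.14) and DNAJB1 (0.02, -0.04 to 0.08). The most abundant cytosolic chaperones of HGC-27 stood lower by a little, HSPA8 at 2743 and 2546 CPM (-0.11, -0.12 to -0.09), HSP90AA1 at 4078 and 3777 CPM (-0.11, -0.12 to -0.10) and HSPD1 at 1718 and 1575 CPM (-0.13, -0.14 to -0.11). Over the 38 members with at least 100 counts in both lines, 0 had intervals on the same side of 0 in both lines, beside 3.16% of the 9867 such genes, a share so low that 0 of 38 is near it. The fitted change over both lines averages such ratios, and whether the responses of the lines differ was not tested, because an interaction term leaves no residual degree of freedom.

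The rest of the folding and quality-control machinery gave no call with estradiol and calls in both directions between the lines. In 6 lists with 137 tested genes, 0 were called with estradiol in either direction (edgeR, with 4 at an unadjusted p under 0.05, or 2.92%, beside 3.24% of all genes tested). Between the lines, the cytosolic chaperonin TRiC and the prefoldin complex, which fold actin and tubulin, had 9 of 14 genes higher in HGC-27 and 4 higher in AGS, led by CCT7 (-0.93 ± 0.05) and CCT5 (-0.89 ± 0.05). Of 37 other cytosolic co-chaperones, 19 were higher in HGC-27 and 14 in AGS. The 3 largest differences were those of the small heat shock protein HSPB6 (counted 3 and 9 times in AGS, 58 and 56 times in HGC-27), the J-domain protein DNAJB5 (-1.94 ± 0.18) and FKBP5, an HSP90 co-chaperone of steroid receptors (-1.61 ± 0.06), all higher in HGC-27. Of 12 mitochondrial chaperones and proteases, 6 were higher in HGC-27 and 3 in AGS, with DNAJA3 at -0.71 ± 0.06. The counts of these lists stand beside 41.5% of all genes tested called higher in HGC-27 and 35.7% in AGS.

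Other ER genes were called in both directions, beside 35.7% of all genes tested called higher in AGS and 41.5% in HGC-27. Of 36 further ER folding genes, 16 were higher in AGS and 12 in HGC-27. FKBP10 and FKBP14, prolyl isomerases that act on collagen, were higher in HGC-27 (FKBP10 was counted 48 and 56 times in AGS and 9591 and 8508 times in HGC-27, -7.43 ± 0.09, and -2.45 ± 0.07 for FKBP14), while the BiP partner DNAJC1 was higher in AGS (2.01 ± 0.08). Of 20 tested genes of ER-associated degradation, 9 were higher in AGS and 4 in HGC-27. The 2 with the largest differences were RNF139, a ubiquitin ligase of the ER (-3.14 ± 0.06), and DERL1, a channel subunit (-3.01 ± 0.06), both higher in HGC-27. Of 18 genes of unfolded protein response signalling, 10 were higher in AGS and 7 in HGC-27. PPP1R15A (GADD34), which restarts translation, was higher in AGS (1.55 ± 0.07), as was the transcription factor CREB3L1 (2.44 ± 0.19). TRIB3, a pseudokinase induced through ATF4, was counted 1 and 4 times in AGS and 1625 and 1512 times in HGC-27, a ratio of HGC-27 over AGS of 1460-fold in the control libraries (counting interval 262 to 57696) and 418-fold in the estradiol libraries (163 to 1536). TRIB3, like HSPB6, passed the filter on low counts through HGC-27 alone and could be called only in that direction. TRIB3 is among the 7 signalling genes higher in HGC-27, and HSPB6 is among the 19 other cytosolic co-chaperones higher there.

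**Figure D4:**
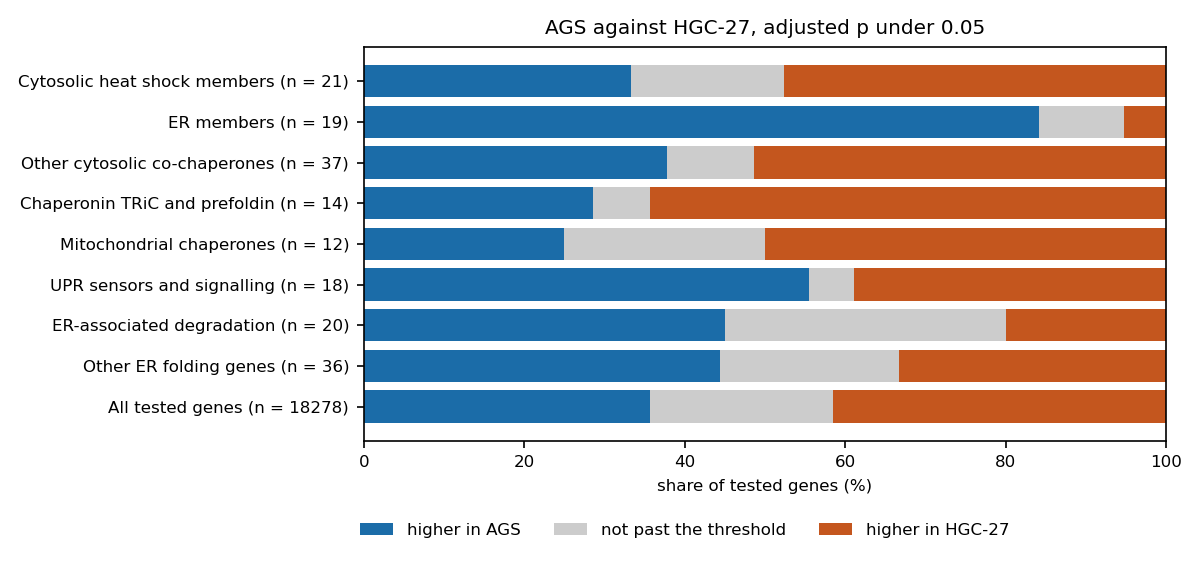
Share of tested genes (x axis, percent) called higher in AGS, not past the threshold, or called higher in HGC-27 (edgeR adjusted p of 0.05), for the 2 member groups, 6 other lists and all 18278 tested genes, with the number of tested genes in brackets. Of the ER members 16 of 19 fall on the AGS side, against 35.7% of all tested genes.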

How the data were processed

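RNA from 2 cell lines, each without and with estradiol, was measured in 4 libraries. Per the submitters' processing notes, reads were aligned with HISAT2 and counted with featureCounts, with no versions stated. Raw, unnormalized counts per gene were deposited by the authors, together with gene lengths in bases. The notes name hg18, but the deposited start and end of all 40 members equal those of GENCODE release 29 on GRCh38, as do 57464 of 58216 matched gene IDs, so coordinates are GRCh38. Of a repeated symbol the row with most counts was taken. The members and lists were chosen with earlier results of these data known.

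The software was edgeR 4.0.16 under R 4.3.3 (TMM factors, filterByExpr, the quasi-likelihood F-test with line and treatment as terms, Benjamini-Hochberg adjustment over 18278 genes, threshold 0.05), with DESeq2 1.42.0 and limma 3.58.1 as alternatives. All 40 members passed the filter. Each SE is the size of the log2 change over the square root of F. The residual degree of freedom was 1, the prior degrees of freedom 396.9 and the biological coefficient of variation 4.59%. The number in a library's name stands for its cell line, which pairs the libraries. They correlated at 0.997 in each line and at 0.777 to 0.781 between lines (Pearson r across tested genes, on log2 of CPM plus 1). Ratios within a line used a prior of 0.5 counts and exact conditional binomial intervals. PCR copies were not removed with molecular identifiers, so the intervals cover counting error only. A count of 3 corresponds to 0.104 to 0.12 CPM. Shared sequence is the percent of 31-base stretches of a gene's longest GENCODE 29 transcript found in a transcript of another gene. Promoter windows are RefSeq's. The steps were tested on simulated data. Values in every library are given for members called between the lines, the 3 highest per length in each compartment and the 3 highest and lowest ratios in each line; from other lists at most 3 called genes with the largest differences are named.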

Additional observations from a re-analysis of the deposited data

Results flagged for a closer look

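In 5 members the counting intervals of the estradiol ratio lay on opposite sides of 0 in the lines. The difference between the lines was not tested in any of them, since each line has 1 library per treatment. HSPA8 had log2 ratios of 0.016 (AGS) and -0.11 (HGC-27), HSP90AA1 of 0.025 and -0.11, and HSPD1 of 0.042 and -0.13. The 2 ER genes went the other way, with HSPA5 at -0.084 (AGS) and 0.036 (HGC-27), and P4HB at -0.053 and 0.061. The 5 are 13.2% of the 38 members with at least 100 counts in both lines, beside 4.86% of 9867 such genes, and all have high counts and therefore narrow intervals. The intervals do not cover the error of scaling. In AGS that of HSPA8 ran from 0.0017 to 0.031, so its side of 0, and with it the count of 5, may change with the scaling factor.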

How the results depend on the processing

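With estradiol, 0 members were called under each alternative that gives a test, including the fit with no replicate block, in which 0 genes of any kind were called in either direction. The count over all genes (21 higher and 7 lower) fell to 6 and 3 with upper-quartile factors, 13 and 4 in the robust fit, 3 and 1 without genes of shared sequence and pseudogenes, 1 and 0 in DESeq2 and 0 and 0 in limma-voom. Among protein-coding genes alone it was 26 higher and 4 lower. Without genes of shared sequence the prior degrees of freedom were 24.4 in place of 396.9. They were 82.08 with RLE and 21.76 with upper-quartile factors, and infinite without a filter and in protein-coding genes. Between the lines, the adjusted p-values of HSPB1 and DNAJC3 were larger by many orders of magnitude where the prior was lower. They were smaller where it was infinite, and both genes were called in each of these settings. Leaving out a line, the median change of the cytosolic members was 0.016 (AGS alone) or -0.051 (HGC-27 alone). Between the lines, 15 to 17 ER members were higher in AGS and 1 in HGC-27 under each tested alternative, and 5 to 8 cytosolic members were higher in AGS and 10 to 11 in HGC-27. In the main fit 35.7% of all genes tested were called higher in AGS and 41.5% in HGC-27. The median over cytosolic members was -0.056 with RLE factors and in DESeq2, -0.15 with upper-quartile factors, -0.058 without a filter, -0.11 in protein-coding genes, -0.19 without genes of shared sequence and -0.12 with HSPA1A and HSPA1B summed. The -0.19 and the -0.12 are medians over fewer members. HSPA1A and HSPA1B, at 0.71 and 0.72 in the main fit, were left out of the first and merged in the second. The median over ER members was 0.42 with upper-quartile factors, and 0.48 to 0.56 in the libraries of 1 treatment. The causes were not tested. Within lines, each count of intervals stayed within 1.5 times its value with library totals, RLE or upper-quartile factors, while the median of the ER members of HGC-27 was 0.0062 with library totals. With 1 library per line and treatment, changes of a few per cent cannot be told from culture or library differences.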

Other observations

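The ER degradation genes DERL1 (chromosome 8, 123013164 to 123042423) and RNF139 (chromosome 8, 124474738 to 124487914), which had the largest line differences of their list, lie on the same chromosome. DERL1 was counted 1466 and 1414 times in AGS and 12401 and 10930 times in HGC-27, and RNF139 1264 and 1177 times against 11770 and 9910. HSF1, farther along chromosome 8 (144291591 to 144314722), was higher in AGS instead (0.75 ± 0.08).

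Pseudogenes whose name is a member's symbol followed by P and digits mostly held few counts. The 17 of HSPD1 were counted 429 and 467 times in AGS and 572 and 478 times in HGC-27, at most 1.39% of the gene's own. The 26 of HSPE1 reached 10.6% of its counts and the 2 of PDIA3 reached 4.18%, while the 17 of HSPA8 reached 0.0346%. The name rule does not reach HSP90AA2P, HSP90AB3P and HSP90B2P, which share most with HSP90AA1, HSP90AB1 and HSP90B1. How reads that match several genes were counted is not stated, so low counts of copies do not show that few reads were misplaced.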
